A study of Mus musculus with 2 samples.

Results

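Tuft cell and type 2 alarm genes were examined in the proximal intestine of mice that lack CD36, a cell-surface receptor that takes up fatty acids and binds modified lipoproteins. The group held 10 genes: Pou2f3, Gfi1b, Trpm5, Dclk1, Avil, Siglecf, Alox5ap, Il25, Il33 and Il13. All probe sets annotated to exactly 1 of these symbols were taken, which gave 20 of the 45101 probe sets on the array, for 10 of the 18194 genes it names. Dclk1 had 9 of them, Trpm5 had 3, and each of the other genes had 1.

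The CD36KO group was a pool of RNA from 3 germline CD36-null mice on the C57BL/6 background, and the WT group was a pool from 3 wild-type C57BL/6 mice. All animals were fed chow. RNA came from the whole proximal section of the gut, so epithelium, muscle, vessels and immune cells were measured together. Each pool was hybridised to 1 Affymetrix array, so there was no replicate, no test was run, and no difference below could be set against the spread between animals or arrays. In such whole tissue, fewer cells of a type and less RNA per cell cannot be told apart.

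Tuft cells are rare chemosensory cells of the gut epithelium that use a taste-like signalling cascade to sense luminal metabolites, among them the succinate of protists. In response they release IL-25 and cysteinyl leukotrienes, which act on group 2 innate lymphoid cells of the lamina propria. Those cells make IL-13, which acts back on epithelial progenitors and favours tuft and goblet cells. IL-33 is a nuclear alarm cytokine that is released on cell damage and acts on the same lymphoid cells.

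The values are the authors' log2 expression values. A probe set was called near background where the higher of its values lay below 4.51, the median of such higher values on the array. As a second reading of background, 40 of 44 probe sets for olfactory receptors, genes mostly silent outside the nose, fell below this limit. A difference is CD36KO minus WT on the log2 scale, and 1.5-fold corresponds to 0.58. Of the 34958 probe sets with 1 symbol, 4.4% were higher in CD36KO by 1.5-fold or more, and 2.52% were lower by as much. With the probe set of highest mean standing for each of 18194 genes, 3.81% were higher and 2.6% lower by as much. These shares belong beside the gene counts of all lists below.

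Several measures of the whole arrays bear on the values below. Cd36 read lower in the CD36KO pool at all 3 of its probe sets, by 2.33-fold to 3.56-fold, with no source used here placing them relative to the deleted part. The medians of the CD36KO and WT arrays were 4.38 and 4.38. Probe sets at the 3' end of beta-actin exceeded those at its 5' end by 1.34 in CD36KO and by 2.28 in WT, and all 18 hybridization controls read lower in CD36KO, by a median of -0.28. Among 27 poly-A spike-in controls 25 read lower in CD36KO, and the median difference of the 27 was -0.50. Of 10 distal small intestine genes 9 read at least 1.5-fold higher (median difference 1.82, led by Fabp6, Fgf15, Tmigd1 and Guca2a), as did 8 of 8 pancreas acinar genes (median 1.70, led by Cpa1, Ctrb1, Cela2a and Cel). Of 13 housekeeping genes 0 passed 1.5-fold at the probe set of highest mean (median -0.030, the furthest being Gusb, Tbp, Polr2a and Hprt). Over all 43 of their probe sets 4 were higher and 1 was lower by 1.5-fold or more, 3 of Ywhaz (0.85 to 0.93) and 2 of Actb (0.98 and -0.96), and the median of gene means was 0.17. The list of absorptive and general epithelial markers spanned levels of 10.6 to 13.5 in CD36KO and 10.3 to 13.6 in WT and had a median difference of 0.036 over 11 genes, with Krt19 (1.63-fold higher) its 1 member past 1.5-fold. Lct, Alpi and Krt18 followed at -0.48, -0.37 and 0.35. The part of these measures in the values of the members was not tested.

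Of the 20 member probe sets, 4 were higher in CD36KO by 1.5-fold or more and 0 were lower by as much, against 4.4% and 2.52% of all probe sets. The 4 belonged to 3 genes, Siglecf, Avil and Dclk1. The remaining 16 lay within 1.5-fold, 9 of the 20 were near background in both pools, and the median difference of all 20 was 0.14, against -0.0036 over all probe sets with 1 symbol. With the probe set of highest mean standing for each gene, Siglecf and Avil were the 2 of 10 genes higher by 1.5-fold or more, against 3.81% of 18194 genes, 0 were lower by as much, against 2.6%, and the median was 0.10, against -0.0098 over all genes. The master regulator and the chemosensing channel differed little at their main probe sets, and the cytokines Il25 and Il13 were near background. In all, 7 of the 10 genes had a probe set above background, and Gfi1b, Il25 and Il13 had none. Over those 7 genes the median was 0.38, against -0.0059 over all genes above background.

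**Figure D1:**
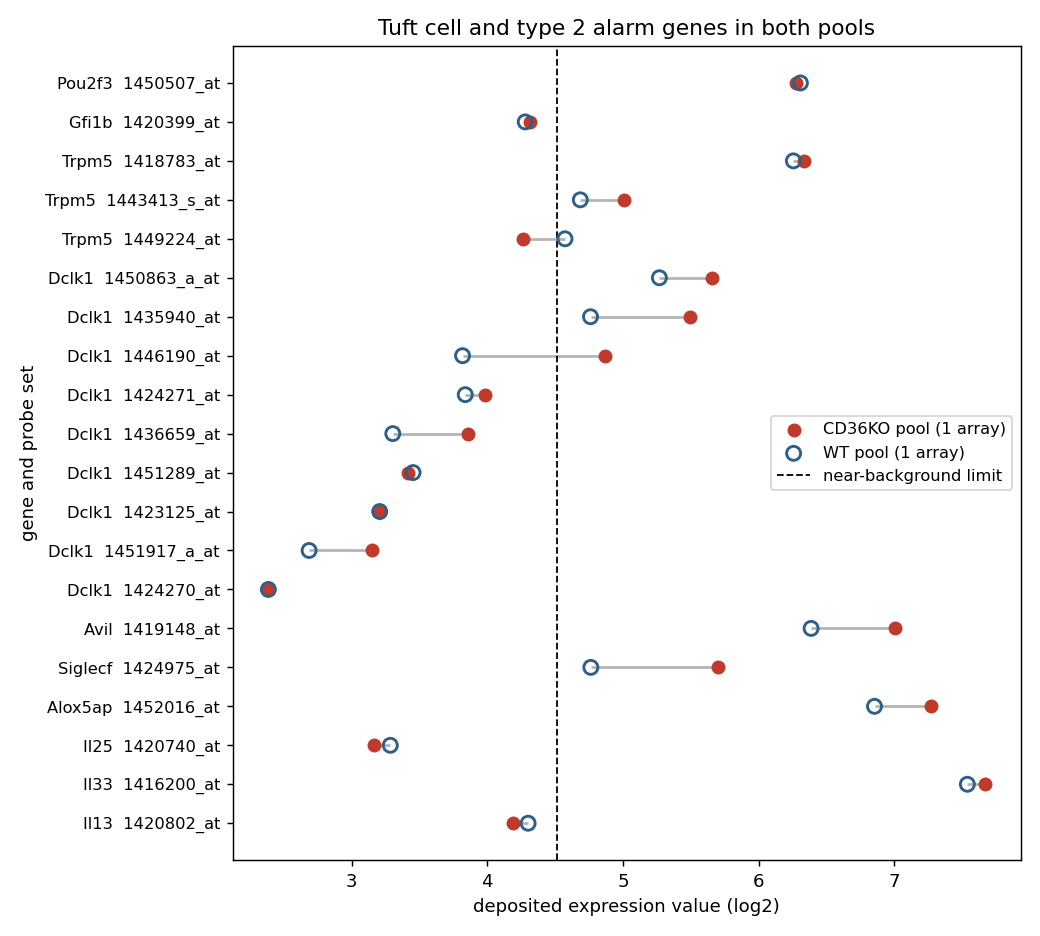
Deposited log2 value (x axis) of each member probe set (rows) in the CD36KO pool (filled red) and the WT pool (open blue), 1 array each, joined by a grey line; the dashed line is the near-background limit of 4.51. Siglecf, Avil and 2 of the Dclk1 probe sets show the widest gaps, while Pou2f3, Il33 and the highest Trpm5 probe set nearly coincide.

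The regulators of the lineage come first. Pou2f3, the POU-domain transcription factor without which tuft cells do not form, read 6.28 in the CD36KO pool and 6.31 in the WT pool. The difference was -0.033, and both values were above background. Gfi1b, a zinc finger repressor present in tuft cells and in the erythroid and megakaryocyte lineages, read 4.31 in CD36KO and 4.28 in WT. Both values lay under the background limit, so a difference in Gfi1b was not detectable at this signal. Of 9 measured erythroid and megakaryocyte markers, 0 passed 1.5-fold and the median difference was 0.11. The largest above background were Klf1 (0.55), Pf4 (0.26), Itga2b (0.20) and Gp9 (0.031), and the WT value of Klf1, 4.12, lay under the limit. The defining red cell gene Alas2 read 3.60 in CD36KO and 3.49 in WT, near background.

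Trpm5, the calcium-activated cation channel that depolarises tuft cells after receptor signalling, had 3 probe sets that did not share a direction. The probe set 1418783_at read 6.33 in CD36KO and 6.26 in WT, a difference of 0.076. The probe set 1443413_s_at, whose suffix marks probes shared by several transcripts, read 5.01 in CD36KO and 4.69 in WT, a difference of 0.32. The third, 1449224_at, read 4.26 in CD36KO and 4.57 in WT, a difference of -0.31, and only its WT value was above the background limit. The probe sets 1418783_at and 1449224_at were designed on the same source sequence. Their differences of 0.076 and -0.31 show how far probe sets of 1 gene diverged on these arrays.

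Dclk1, a microtubule-binding kinase that marks tuft cells in the mouse intestine and is also made by neurons, read higher in the CD36KO pool at 6 of its 9 probe sets. Of the others, 1 read lower, by -0.041, and 2 held the same value in both pools. At 1435940_at Dclk1 read 5.49 in CD36KO and 4.76 in WT, 1.66-fold higher with both values above background. At 1450863_a_at it read 5.65 in CD36KO and 5.27 in WT, a difference of 0.38. At 1446190_at it read 4.87 in CD36KO and 3.82 in WT, 2.07-fold higher, and this probe set passed the background limit through its CD36KO value alone.

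The other 6 Dclk1 probe sets were near background in both pools, with differences from -0.041 to 0.56. The 2 with equal values, 1423125_at at 3.21 and 1424270_at at 2.39, therefore hold no measured difference. The probe set 1423125_at was designed on the same source sequence as 1450863_a_at, which read 5.65 in CD36KO and 5.27 in WT. The 3 probe sets 1424271_at, 1451289_at and 1424270_at share another source sequence and were all near background. The median difference over all 9 probe sets was 0.38. Markers of enteric neurons and glia, another possible source of Dclk1 in the gut wall, had a median of -0.010 over 12 genes. At the probe set of highest mean 0 of them passed 1.5-fold. Of the 12, 6 were near background, and the median of the 6 above it was 0.13. Levels of all 12 spanned 3.16 to 6.14 in CD36KO and 3.52 to 6.06 in WT, and their part in the Dclk1 values was not tested. The largest differences above background were those of Stmn2 (0.53, with 0.89 at another probe set, which passed 1.5-fold with its WT value of 4.17 under the limit), Uchl1 (0.36), Chrna3 (-0.21) and Ret (0.18), and the neuronal genes Elavl4, Snap25 and Tubb3 were near background.

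Because its probe sets disagree, the upstream sequences of both annotated starts of Dclk1 are shown. RefSeq (build GRCm38.p6) lists a window at chr3:55242114-55242363 and another inside the gene at chr3:55461478-55461727, both on the plus strand. Each is the stretch of 250 bases before a start, written 5′ to 3′, and capitals mark a match to the STAT6 motif (TTC, any 4 bases, GAA), the site class used by IL-4 and IL-13 signalling. No source used here says which start each probe set reports on.
Dclk1 outer start: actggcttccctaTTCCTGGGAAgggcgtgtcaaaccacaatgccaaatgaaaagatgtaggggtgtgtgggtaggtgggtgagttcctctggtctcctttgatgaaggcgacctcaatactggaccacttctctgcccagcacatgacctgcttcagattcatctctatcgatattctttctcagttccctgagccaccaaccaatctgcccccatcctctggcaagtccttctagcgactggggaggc
Dclk1 inner start: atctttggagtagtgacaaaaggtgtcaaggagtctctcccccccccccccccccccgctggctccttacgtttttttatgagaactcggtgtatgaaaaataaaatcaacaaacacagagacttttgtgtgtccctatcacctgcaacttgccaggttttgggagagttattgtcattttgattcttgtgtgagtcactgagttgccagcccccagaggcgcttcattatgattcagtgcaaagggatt
The outer window held 1 STAT6 match and the inner window none.

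Avil, which encodes advillin, an actin-binding protein of the villin family found in tuft cells and sensory neurons, read 7.01 in the CD36KO pool and 6.39 in the WT pool. This was 1.54-fold higher, a difference of 0.62, with both values above background. The middle 90% of all probe sets above background spanned -0.51 to 0.68, and Avil lay inside that span. Siglecf, a sialic acid-binding lectin on tuft cells and eosinophils, read 5.70 in CD36KO and 4.76 in WT. This was 1.91-fold higher, a difference of 0.93, outside the same span.

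**Figure D2:**
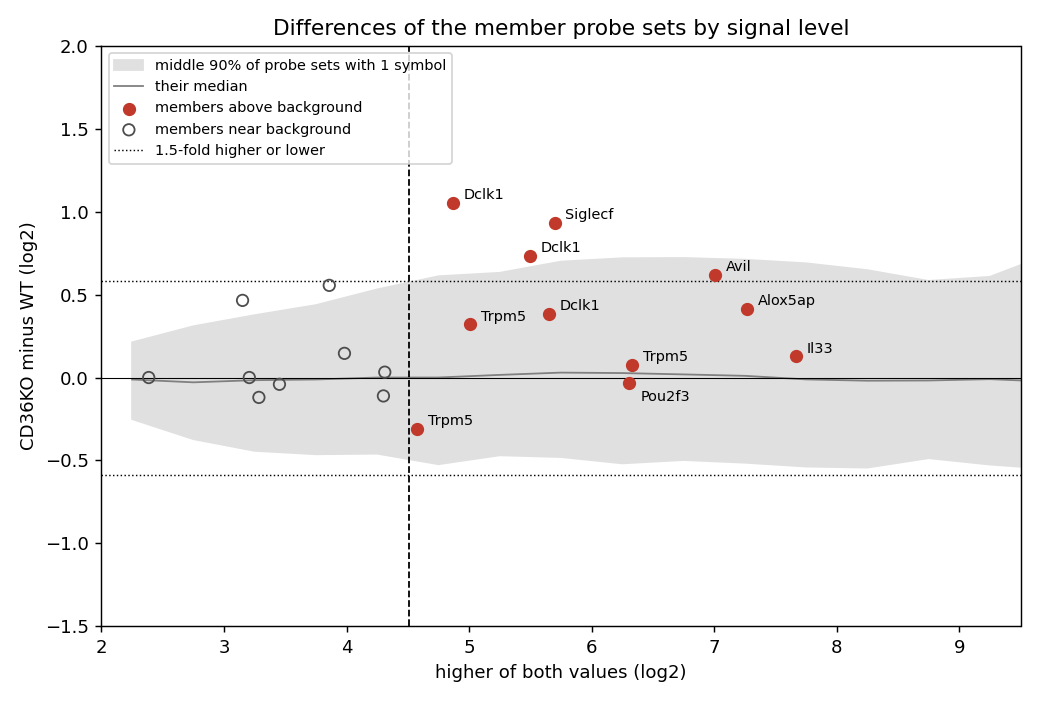
CD36KO minus WT difference (log2, y axis) against the higher of both values (log2, x axis) for the 20 member probe sets, over the middle 90% (grey band) and median of all probe sets with 1 symbol in bins of that level; dotted lines mark 1.5-fold and the dashed line the near-background limit of 4.51. Siglecf, 2 Dclk1 probe sets above background and 2 near it lie above the band, and Avil lies inside it.

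The windows before the starts of Avil, at chr10:127000459-127000708, and of Siglecf, at chr7:43351091-43351340, are shown as those of the 2 genes past 1.5-fold. Both are on the plus strand of GRCm38.p6, from RefSeq, that of Avil inside the annotated span of the gene, and capitals mark ATGCAAA, the core of the octamer bound by POU factors such as Pou2f3, or its reverse complement TTTGCAT.
Avil: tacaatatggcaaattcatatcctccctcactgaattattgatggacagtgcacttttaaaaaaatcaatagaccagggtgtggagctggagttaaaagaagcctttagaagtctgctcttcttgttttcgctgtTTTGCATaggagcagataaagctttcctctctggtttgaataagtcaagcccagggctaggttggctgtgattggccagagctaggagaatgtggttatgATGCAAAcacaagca
Siglecf: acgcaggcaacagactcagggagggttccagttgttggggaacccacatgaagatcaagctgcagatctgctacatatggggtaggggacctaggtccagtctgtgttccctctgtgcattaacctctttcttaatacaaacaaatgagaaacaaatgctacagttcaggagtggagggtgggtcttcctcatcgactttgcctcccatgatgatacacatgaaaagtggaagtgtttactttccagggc
The Avil window held the octamer core in both orientations, beginning 115 and 15 bases before the start, and the Siglecf window held neither motif. Over 32851 windows of the same length, 4.12% held the octamer core and 0.247% held it 2 or more times. The STAT6 motif was present in 5.85%. Of the 9 windows listed for 7 of the members, 2 held the octamer core (Avil and the inner start of Il33) and 3 the STAT6 motif (Gfi1b and the outer starts of Dclk1 and Il33). Both strands were searched, and none of these 9 windows held both motifs. A match is a run of letters, not a measured binding site.

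Siglecf is shared with eosinophils, whose markers were measured beside it. Of 8 eosinophil genes on the array, 5 were near background in both pools, namely Epx, Prg2, Prg3, Ccr3 and Il5ra, which encode granule proteins and the eotaxin and IL-5 receptors. Epx, the eosinophil peroxidase, read 3.04 in CD36KO and 3.13 in WT, and Prg2, the major basic protein, read 4.11 in CD36KO and 3.62 in WT. The 3 above background, Fcgr3 (0.50), Csf2rb (0.44) and Alox15 (0.027), are made by other myeloid cells too. The median of the list was 0.19, that of the 3 above background was 0.44, and 0 of 8 passed 1.5-fold. Levels of the whole list spanned 2.53 to 6.52 in CD36KO and 2.55 to 6.02 in WT. The part of eosinophils in the Siglecf value was not tested.

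Alox5ap encodes the protein that presents arachidonic acid to 5-lipoxygenase, the first step to leukotrienes. It read 7.27 in the CD36KO pool and 6.86 in the WT pool, a difference of 0.42 that did not reach 1.5-fold. Macrophages and monocytes also make Alox5ap. All 14 macrophage and monocyte markers measured had a difference above 0, with a median of 0.28. Past 1.5-fold were 4, against 3.81% of all genes higher by as much: Cd68 (1.71), Lyz2 (1.11), C1qc (0.82) and C1qa (0.80). C1qb differed by 0.15 at its probe set of highest mean, with 1.20, past 1.5-fold, and 0.083 at its others. The WT value of Cd68, 3.46, lay under the background limit. Levels of the 14 markers spanned 3.02 to 12.7 in CD36KO and 2.99 to 12.2 in WT, and their part in the Alox5ap value was not tested. Neutrophil markers, another source of leukotrienes, had a median of 0.0059 over 10 genes, of which 8 were near background and 0 passed 1.5-fold. Those above it were Ltf (-0.18) and Elane (-0.0075).

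Other genes of the eicosanoid pathway differed in both directions, 10 of 16 above 0 and 6 below. Of these 16 genes of eicosanoid synthesis and reception, 0 were higher by 1.5-fold or more and 1 was lower by as much, against 3.81% higher and 2.6% lower among all genes, and the median was 0.049. That gene was Ltb4r1, the leukotriene B4 receptor, at 5.99 in CD36KO and 6.85 in WT, 1.81-fold lower. Ltc4s, the synthase of cysteinyl leukotrienes, read 6.93 in CD36KO and 7.46 in WT, a difference of -0.53. Alox5, the 5-lipoxygenase itself, read 6.00 in CD36KO and 6.02 in WT. Above background, the cytosolic phospholipase Pla2g4a (0.24), the prostaglandin D receptor Ptgdr (-0.20), the prostaglandin E synthase Ptges (0.14) and the leukotriene A4 hydrolase Lta4h (0.057, with -0.54 and 0.25 at other probe sets) followed. Hpgds, the prostaglandin D synthase of tuft cells, was near background, at 3.84 in CD36KO and 3.91 in WT.

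The cytokines of the circuit were mostly under the background limit. Il25, the tuft cell cytokine that activates innate lymphoid cells, read 3.17 in the CD36KO pool and 3.28 in the WT pool. Il13, the effector cytokine of those cells, read 4.19 in CD36KO and 4.30 in WT. Both differences, -0.12 and -0.11, lay among values that cannot be told from no signal, and the middle 90% of near-background probe sets spanned -0.42 to 0.39. A change in Il25 or Il13 was not detectable at this signal.

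Il33 was the 1 cytokine among the members above background. It read 7.67 in the CD36KO pool and 7.54 in the WT pool, a difference of 0.13. Stromal and endothelial cells are known sources of Il33, and their markers were measured beside it. Of 12 fibroblast and blood endothelial markers 8 read at least 1.5-fold higher and 0 lower, against 3.81% and 2.6% of all genes. The median of the 12 was 0.83. Cdh5 (-0.11) and Kdr (0.060), both endothelial, differed less than Il33. Other endothelial markers read higher, with Emcn (0.83), Pecam1 (0.83) and Cd34 (0.81) past 1.5-fold and Tek (0.43) within it. The WT values of Emcn, 4.48, and Pecam1, 3.90, lay under the background limit. The largest, all of fibroblasts, were Lum (1.52), Col1a1 (1.37, with 0.057 at another probe set), Dcn (1.26, with -0.081 at another) and Col3a1 (1.16). The levels of this list spanned 4.73 to 10.7 in CD36KO and 3.90 to 9.57 in WT, and its part in the Il33 value was not tested.

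Il33 was measured well above background and has 2 annotated starts. Its outer window held a STAT6 match, beginning 36 bases before the start, and is not shown. The window before its inner start, which held the octamer core, is shown, at chr19:29945540-29945789 on the plus strand of GRCm38.p6 (RefSeq). Capitals mark the octamer core in reverse orientation.
Il33 inner start: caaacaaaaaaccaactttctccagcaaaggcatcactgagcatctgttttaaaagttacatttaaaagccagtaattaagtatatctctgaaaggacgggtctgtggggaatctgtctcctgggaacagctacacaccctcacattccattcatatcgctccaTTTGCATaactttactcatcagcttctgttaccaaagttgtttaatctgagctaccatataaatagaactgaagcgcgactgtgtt

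Other genes of the tuft cell programme were counted as a list of 40, of which 34 were measured and 24 lay above background. Of the 34, 2 read at least 1.5-fold higher and 0 lower, against 3.81% higher and 2.6% lower among all genes. The differences of 21 genes were above 0 and those of 13 below, with a median of 0.14. The 2 were Cd24a, a surface sialoprotein also found on crypt cells, at 11.5 in CD36KO and 10.8 in WT, and Sucnr1, the succinate receptor, at 4.43 in CD36KO and 3.41 in WT. Sucnr1 was near background in both pools, and the other probe sets of Cd24a differed by 0.19 and 1.88. Over all 55 probe sets of the list 5 were higher by 1.5-fold or more and 0 lower, against 4.4% and 2.52% of all probe sets. Among them were further ones of Fyb (0.70, with -0.19 at its other) and Skap2 (0.63, with 0.12 and -0.14 at its others). The WT value of that Skap2 probe set, 4.26, lay under the background limit. Of its measured genes, the list shares Alox5, Ltc4s and Hpgds with the eicosanoid list and Il17rb and Tslp with the type 2 list. It shares Krt18 with the list of absorptive and general epithelial markers.

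Above background, Rgs13, a regulator of G-protein signalling, differed by 0.56, with 5.74 in CD36KO and 5.18 in WT. The kinase subunit Pik3r5 (0.47), Lrmp (0.37) and the adaptor Sh2d6 (0.36) also read higher in CD36KO without reaching 1.5-fold, whereas Ltc4s read lower. Immune cells were measured in the same tissue, and their part in the values of the tuft list was not tested. The immune lists had medians of 0.28 (macrophages), 0.40 (B cells), 0.20 (mast cells), 0.19 (eosinophils) and 0.0059 (neutrophils). Within the taste cascade above Trpm5, Itpr3, the receptor that releases stored calcium, was well above background, at 9.10 in CD36KO and 8.79 in WT, a difference of 0.31. Plcb2, the phospholipase of the cascade, read 4.54 in CD36KO and 4.38 in WT, Tas1r3, a taste receptor subunit, read 4.30 in CD36KO and 4.65 in WT, and Gng13, its G-protein subunit, read 4.08 in CD36KO and 3.58 in WT. Gng13 was near background, and for Plcb2 and Tas1r3 a single value passed the limit. Il17rb, the IL-25 receptor subunit, read 5.16 in CD36KO and 5.31 in WT.

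Type 2 cytokines, their receptors and innate lymphoid genes differed by less than 1.5-fold at the probe set of highest mean of each gene. Of 24 measured genes 0 passed it in either direction, 10 were near background, and the median was 0.074. Over all 53 probe sets of these genes 2 were higher by 1.5-fold or more, for Il13ra1 (0.82) and Il4ra (0.68). A further 1 was lower by as much, for Arg2 (-0.66). Among all probe sets with 1 symbol 4.4% were higher and 2.52% lower. The near-background genes included Il4, Il5, Tslp and the lineage factor Gata3. Among those above background, Arg2 (-0.49, an arginase), Crlf2 (0.48, the TSLP receptor), Il4ra (0.46, the shared IL-4 and IL-13 receptor chain), Klrg1 (0.43), Bcl11b (-0.41) and Il9 (-0.37) differed most. The CD36KO value of Il9, 4.35, lay under the background limit. Il4ra read 7.36 in CD36KO and 6.90 in WT, and Stat6, the factor downstream of it, read 8.64 in CD36KO and 8.64 in WT.

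Among genes listed for their response to IL-13 in mucosal epithelium, several read much higher in the CD36KO pool, while Il13 itself was near background in both. This list was written with earlier results of these arrays known, and its count is no independent evidence of its direction. Of 13 measured genes 6 were higher by 1.5-fold or more and 1 was lower by as much, against 3.81% and 2.6% of all genes. The median of the 13 was 0.45. Pla2g4c, a cytosolic phospholipase, read 10.7 in CD36KO and 3.88 in WT, and at its other probe set 6.57 in CD36KO and 5.39 in WT, a difference of 1.18. Retnlb, a goblet cell antimicrobial peptide, read 8.67 in CD36KO and 3.37 in WT, and Gsdmc2, a gasdermin, 9.90 in CD36KO and 4.80 in WT. Ang4, an antimicrobial ribonuclease, read 13.5 in CD36KO and 11.3 in WT, and was higher at both its probe sets. The WT values 3.88 of Pla2g4c and 3.37 of Retnlb lay under the background limit, so the size of those differences is not measured on both sides.

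Of the other genes past 1.5-fold, Clca1 and Muc2, goblet cell products, read 2.37-fold and 2.08-fold higher. Ccl24, an eotaxin, read 6.01 in CD36KO and 6.87 in WT, 1.81-fold lower. Tff3 (0.17) and Fcgbp (0.098), abundant goblet cell products, lay within 1.5-fold, and Il13ra2, the decoy receptor, was near background. The distal small intestine genes had a median of 1.82 in the same pools, and their part in this list was not tested.

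Mast cell and B cell markers complete the immune lists. Of 12 mast cell markers, with a median of 0.20, 7 were near background. At least 1.5-fold higher were 3, against 3.81% of all genes: the mucosal proteases Mcpt1 (1.95) and Mcpt2 (1.04), and Kit (0.81, with -0.0064 at another probe set). The WT value of Mcpt1, 4.06, lay under the background limit. Hdc differed by 0.25, with its WT value of 4.48 under the limit. The defining genes Cpa3, Fcer1a and Ms4a2 were near background in both pools. At the probe set of highest mean 4 of the 12 read lower in CD36KO. They were Gata2 (-0.20) above background, and Tpsb2 (-0.52), Ms4a2 (-0.38) and Mcpt4 (-0.26) near it. Over 7 markers of B and plasma cells the median was 0.40. Ms4a1 (0.96) and Pou2af1 (0.94) passed 1.5-fold, against 3.81% of all genes higher by as much, and Cd79a (0.55) and Cd79b (0.40) did not. Spib, a transcription factor of the tuft list that B cells also make, read 6.47 in CD36KO and 6.12 in WT.

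**Figure D3:**
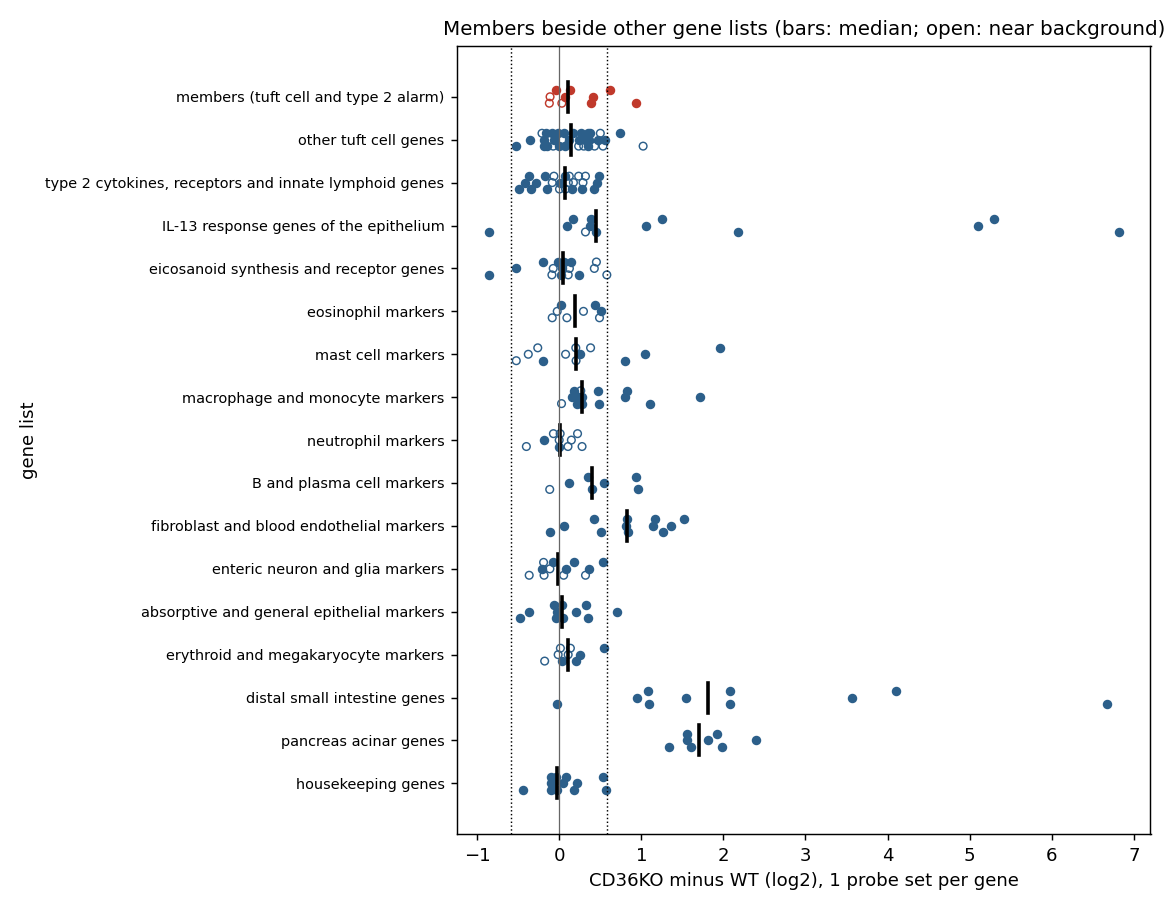
CD36KO minus WT difference (log2, x axis) of each gene, 1 probe set per gene, for the 10 members (red) and the 16 other lists (blue); filled points are above background, open points near it, black bars are medians and dotted lines mark 1.5-fold. The members' median of 0.10 lies near those of the other tuft cell genes (0.14) and the type 2 genes (0.074), below those of the IL-13 response genes (0.45), the fibroblast and endothelial markers (0.83) and the distal genes (1.82). Over filled points alone the members' median was 0.38, above those of the other tuft cell genes (0.092) and the type 2 genes (-0.068).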

How the data were processed

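Per the labels' protocols, RNA of 3 animals was pooled for each genotype, and 100 ng of it served to prepare the biotinylated cRNA for 1 Affymetrix array. The authors deposited log2 values, a base inferred from their maximum of 14.2; no source used here names the summarization, normalization or background correction. The table holds no detection calls, and precision is limited by the number of arrays.

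Symbols came from the annotation of the array: 34958 probe sets carried 1 symbol, 932 several and 9211 none. For 34754 of the probe sets with 1 symbol, the gene identifier was found in RefSeq (GRCm38.p6). Differences are CD36KO minus WT of the values as deposited. Since each genotype has 1 array, no p-value is given and counts describe these arrays.

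The members and the 16 other lists were chosen with earlier results of these data known. Named were all members, Cd36 and the up to 4 genes above background with the largest absolute difference per list (6 for the tuft, type 2 and eicosanoid lists); other genes were named after their values were seen. A likeness of pattern between genes cannot be measured over 2 arrays. Alternatives covered scaling, threshold, background limit and choice of probe set. The tools were pandas 2.3.3 and statsmodels 0.14.6 under Python 3.11.15, with figures drawn in matplotlib 3.10.9. The procedure was tested on simulated data.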

Additional observations from a re-analysis of the deposited data

How the results depend on the processing

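Centring on the median, quantile normalization and removal of a lowess trend (fraction 0.3) left the counts at 4 probe sets and 2 genes higher and 0 lower, and moved none of the 20 member differences by more than 0.26, the robust SD of all differences. A shift by the hybridization controls, which moves the median of all probe sets to 0.27, gave a median of 0.42 over the 20 probe sets and of 0.38 over the 10 genes, with 9 probe sets and 4 genes at least 1.5-fold higher and 0 lower, against 14.1% of all probe sets and 13.3% of all genes higher under that shift. At 2-fold 1 probe set was higher, against 1.15% of all, and at a log2 difference of 0.32 9 were, against 13.0%. A background limit at the 75th percentile of all probe sets put 17 of the 20 near background, while the 95th percentile of olfactory receptor probe sets put 10 there. Averaging the probe sets of each gene, or taking the probe set of smallest difference, also gave 2 genes higher. These were Siglecf and Avil, which have 1 probe set each, so neither choice could change their values. The choice could bear on Dclk1 and Trpm5 alone, and the smallest difference could not add a gene. Leaving out the 2 Dclk1 probe sets of equal value, an alternative added after the data were seen, gave a median of 0.23. Of the 16 other lists, 2 had a median that moved by more than 0.26 when genes near background were left out, the IL-13 response genes (0.75) and the mast cell markers (0.81). The median of the members moved by more than 0.26 as well, from 0.10 over 10 genes to 0.38 over the 7 above background. No paired analysis was possible because each genotype had 1 array, and no replicate could be left out for the same reason. Signal near background limits every statement on Gfi1b, Il25, Il13 and 6 of the Dclk1 probe sets.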

Other observations

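The receptors for the type 2 cytokines differed between their own probe sets. Il13ra1, the IL-13 receptor chain, had 5 probe sets whose differences ranged from -0.56 to 0.82. The highest difference was at 1427165_at, with 7.71 in CD36KO and 6.89 in WT, and the probe set of highest mean, 1427164_at, read 8.48 in CD36KO and 8.83 in WT. Il4ra read higher in CD36KO at all 3 of its probe sets, by 0.051 to 0.68. These genes were chosen after their values were seen.

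Exactly equal values in both pools were not particular to Dclk1. Of all 45101 probe sets, 417 (0.925%) held the same value in CD36KO and WT. Of the 286 among them that carried 1 symbol, 217 were near background.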
